A study of Mus musculus with 2 samples.

Results

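The genes described here encode the initiation and elongation factors of cytosolic protein synthesis, together with proteins that repress or modify them. They were chosen by name, as all protein-coding genes of the expression table whose symbols begin with Eif1 to Eif6 or with Eef, leaving out the Eif2ak kinases. This gave 65 genes of the 22046 protein-coding genes and 54680 loci in the table. RNA was sequenced from CT26 cells, a mouse colon cancer line, in 2 groups of 1 library each. In CT26shSetdb1, called the knockdown here, lentivirus delivered a short hairpin RNA that targets Setdb1, the gene of an enzyme that methylates histone H3 on lysine. The CT26shCtrl group carried lentivirus with the empty knockdown vector, has the genotype label wild type, and is called the control; whether that vector expresses any hairpin is not given. Both groups were grown in medium with serum and collected on day 6, when the knockdown cells had changed in phenotype, and the submitters call those cells differentiated. Each group is 1 culture of 1 line with 1 hairpin or vector, so every difference below has no replicate check and describes these 2 libraries.

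Translation begins when a ternary complex of eIF2, GTP and initiator tRNA joins the small ribosomal subunit with eIF1, eIF1A, eIF3 and eIF5. The eIF4F complex, made of the cap-binding protein eIF4E, the scaffold eIF4G and the helicase eIF4A, brings this assembly to the capped end of an mRNA, and the assembly scans for a start codon that eIF1 and eIF5 help to select. eIF4E-binding proteins, encoded by the Eif4ebp genes, block the eIF4E to eIF4G contact until the kinase complex mTORC1 phosphorylates them. After the subunits join, eEF1A delivers each aminoacyl-tRNA and eEF2 moves the ribosome along the message. mRNA levels of these genes do not give the amount or the phosphorylation of the proteins.

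Levels are FPKM (fragments per kilobase of gene model, scaled to a fixed depth), as the authors deposited them. Log2 ratios are of (FPKM + 1), knockdown over control, and they understate differences of genes at low levels: Eif3j1, at 1.41 and 0.760 FPKM, had a log2 ratio of -0.45, and of -0.81 with 0.1 added in place of 1. Whole reads could be recovered from the FPKM values, and a read ratio divides the reads of a gene by the total of its own library, again knockdown over control. Each read ratio has a 95% exact binomial (Clopper-Pearson) interval, which covers counting error only, since PCR copies are not independent molecules and no culture was repeated. The totals were 18421604 reads for the control and 19045830 for the knockdown. Both FPKM columns were scaled by 1 common depth, so log2 ratios without a pseudocount would sit about 0.048 above the log2 of the matching read ratios. The added 1 changes this gap, most for genes at low levels. Setdb1, the targeted gene, was at 10.4 FPKM in the control and 2.47 FPKM in the knockdown, a read ratio of 0.229 (0.202 to 0.259). Of 11 markers of colon and other epithelium, 4 reached 1 FPKM, and Epcam, Cdh1 and Lgr5 had no read in either library, while all 6 mesenchymal markers reached 1 FPKM. Summed over each list, the epithelial markers were at 43.4 FPKM in the control and 129 in the knockdown, almost all of it Krt18 (1016 and 2423 reads) and Krt20 (183 and 1285 reads). The mesenchymal markers summed to 1373 and 1566 FPKM, mostly Vim and Fn1, which were higher with Sparc, while Col1a1, Col1a2 and Col3a1 were lower (log2 ratios of -0.41, -0.56 and -0.96). Of the 4 leukocyte markers only Cd68 reached 1 FPKM, at 10.4 and 100.2, while Ptprc had 0 and 4 reads and Cd3e none, and both endothelial markers had no read. The part of these marker levels in the results below was not tested.

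The mRNAs of most translation factors were lower in the knockdown library, by small amounts, and few were higher. Of the 65 genes, 58 reached 1 FPKM in at least 1 library, and 46 of these (79.3%) were lower by some amount, against 50.0% of the 10671 genes tested. Their median log2 ratio was -0.29, with quartiles of -0.49 and -0.05, beside a median of -0.00039 over all genes tested. Differences of 2-fold were no more frequent than among all genes. Only 2 of the 58 (3.45%) were at least 2-fold lower, Eif5 and Eif3a, against 4.85% of all genes tested, and 0 were at least 2-fold higher, against 6.81%. At 1.5-fold, 11 (19.0%) were lower, against 14.3% of all genes, and 1 (1.72%), Eif1b, was higher, against 16.9%. With a pseudocount of 0.1 the lower genes at 1.5-fold were 15, the further ones being Eif2b3, Eif3j1, Eif3j2 and Eif4g3. Over the 9365 protein-coding genes tested alone, the matching shares were 4.15% and 6.18% at 2-fold, 13.4% and 16.1% at 1.5-fold, and 49.9% lower by any amount. The counting interval of the read ratio lay wholly below 1 for 44 of the 58 genes (75.9%, against 40.6% of all genes tested) and wholly above 1 for 5, namely Eif1b, Eif2b4, Eif4a2, Eif4b and Eif6 (8.62%, against 35.2%). It included 1 for 9 (15.5%, against 24.2%). Intervals narrow as reads increase, so these shares also depend on the read number of each gene, and that part was not tested. No test between conditions stands behind these shares, and with FPKM relative to the rest of the library, less factor mRNA per cell and more of other mRNAs cannot be told apart, nor can fewer cells of one kind and less RNA per cell.

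**Figure D1:**
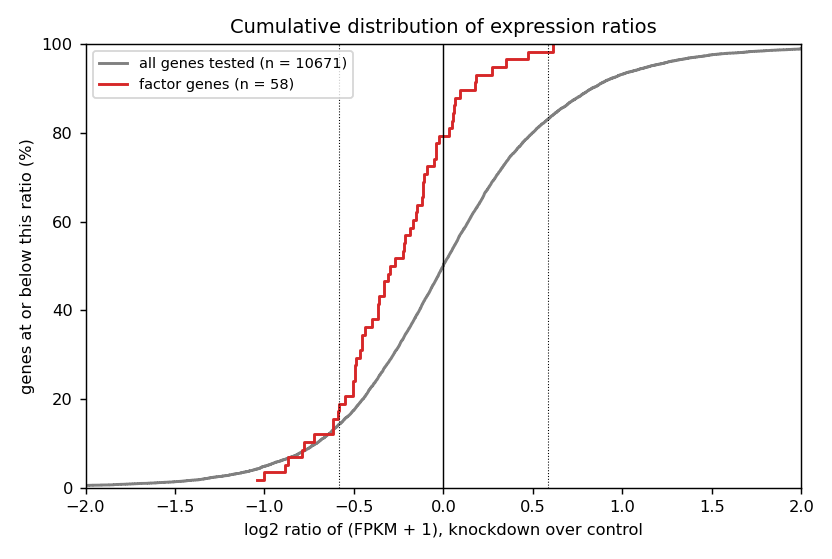
Cumulative distribution of log2 ratios of (FPKM + 1), knockdown over control (x axis), as the percentage of genes at or below each ratio (y axis), for the 58 factor genes (red) and the 10671 genes tested (grey). The dotted lines mark 1.5-fold. The red curve reaches 79.3% at a ratio of 0, where the grey curve is at 50.0%, and 1 factor gene lies beyond 1.5-fold on the higher side.

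Together the 65 genes took 784410 reads, 4.26% of the control library, and 599716 reads, 3.15% of the knockdown library, a read ratio of 0.739 (0.737 to 0.742). Most of this came from the elongation factors. The 7 genes of eEF1A, eEF1B, eEF2 and eEFSec took 2.87% of control reads and 2.02% of knockdown reads (ratio 0.705, 0.702 to 0.708), and the 51 initiation factor and repressor genes took 1.37% and 1.11% (ratio 0.811, 0.806 to 0.815). Among the 58 genes that reached 1 FPKM, levels ranged over more than 3 orders of magnitude, from Eif3j1 at 1.41 FPKM in the control to Eef1a1 at 4701 FPKM. Among all loci of the table, Eef1a1 ranked 4 in the control and 6 in the knockdown, and Eef2 ranked 7 in both.

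**Figure D2:**
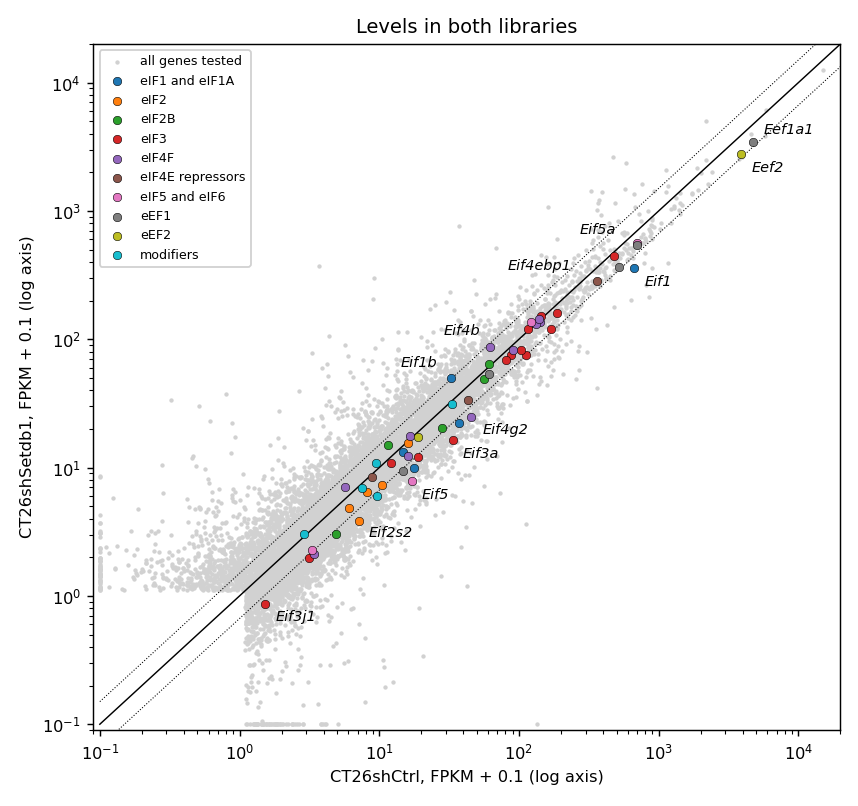
Level in control (x axis) and knockdown (y axis) cells, both FPKM + 0.1 on log axes, for the genes tested (grey) and for the 58 factor genes, coloured by group. The solid line is equality and the dotted lines mark 1.5-fold. Most coloured points lie under the solid line, Eef1a1 and Eef2 at the upper right included, and Eif1b and Eif4b lie above it.

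Factors of start codon selection were among the lowest. eIF1 (gene Eif1, ENSMUSG00000035530, chromosome 11, 100319885 to 100322096 in GRCm38) keeps the scanning ribosome from starting at poor sites. Eif1 had 26010 reads (662 FPKM) in the control and 14082 reads (358 FPKM) in the knockdown; its log2 ratio was -0.88 and its read ratio 0.524 (0.513 to 0.535). Eif5 (ENSMUSG00000021282, chromosome 12, 111538016 to 111546752), whose product activates GTP hydrolysis by eIF2 and so favours the start, had 2191 reads (17.2 FPKM) against 999 (7.82 FPKM). Its log2 ratio of -1.04 was the lowest of all the factor genes, with a read ratio of 0.441 (0.409 to 0.475). These antagonists in start site choice were thus both lower in the knockdown library, and the Eif1 level was 38.6 times that of Eif5 in the control and 45.8 times in the knockdown.

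The paralog of Eif1 went the other way. Eif1b (ENSMUSG00000006941, chromosome 9, 120492232 to 120495330), which encodes a close relative of eIF1, had 685 reads (32.5 FPKM) in the control and 1057 (50.2 FPKM) in the knockdown. Its log2 ratio of 0.61 was the highest of the factor genes and its read ratio was 1.49 (1.35 to 1.65), so it was past 1.5-fold on the FPKM scale and not when each library was scaled by its own total or by the upper quartile. Eif1b made up 4.68% of the summed FPKM of the pair in the control and 12.3% in the knockdown. As a share of the pair's reads, which are not corrected for length, it went from 2.57% (2.38% to 2.76%) to 6.98% (6.58% to 7.40%). Exons of other loci cover 12.7% of the Eif1b gene model. The only such locus with any read, the antisense D830035M03Rik, had 0 reads in the control and 9 in the knockdown. The Swiss-Prot match of Eif1 in the deposited table is shared by 22 loci, and the Eif1 locus held 99.9% of their reads.

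Upstream sequence is shown for the pair that diverged, Eif1 and Eif1b, and for the 2 genes past 2-fold, Eif3a and Eif5. The stretches are from RefSeq (GRCm38.p6), begin 250 bases before the RefSeq transcript start and stop at that start or at the first base of a GENCODE M21 exon of the gene met within these bases. They are written 5′ to 3′ on the strand of the gene. Capitals mark GGGCGG or its reverse complement CCGCCC, the GC box bound by SP and KLF factors.
Eif1 (chr11:100319699-100319884, plus strand, 186 bases): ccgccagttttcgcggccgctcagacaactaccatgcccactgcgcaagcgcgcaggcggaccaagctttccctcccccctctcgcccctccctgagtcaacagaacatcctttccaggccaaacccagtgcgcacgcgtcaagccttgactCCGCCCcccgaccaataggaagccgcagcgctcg
Eif1b (chr9:120492356-120492490, plus strand, 135 bases): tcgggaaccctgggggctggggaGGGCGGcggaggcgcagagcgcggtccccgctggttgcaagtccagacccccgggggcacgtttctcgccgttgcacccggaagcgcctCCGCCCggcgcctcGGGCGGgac
Eif3a (chr19:60790694-60790943, minus strand, 250 bases): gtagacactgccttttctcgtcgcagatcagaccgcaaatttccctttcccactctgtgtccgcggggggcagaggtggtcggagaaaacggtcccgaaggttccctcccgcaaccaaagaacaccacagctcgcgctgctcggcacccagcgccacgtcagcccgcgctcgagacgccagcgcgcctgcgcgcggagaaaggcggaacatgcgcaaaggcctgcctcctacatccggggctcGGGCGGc
Eif5 (chr12:111537851-111538015, plus strand, 165 bases): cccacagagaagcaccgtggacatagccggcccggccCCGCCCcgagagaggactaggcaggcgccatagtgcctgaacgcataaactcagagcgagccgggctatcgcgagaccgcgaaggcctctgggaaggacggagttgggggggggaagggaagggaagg
The Eif1b stretch lies inside the deposited gene span, in an intron of a GENCODE transcript that starts further upstream. It held 3 GC boxes in 135 bases and the others 1 each, with a GC content of 77.0% for Eif1b, 65.1% for Eif1, 65.6% for Eif3a and 66.7% for Eif5. CCAAT, searched on both strands, occurred once in the Eif1 stretch and in none of the others, and the E-box CACGTG in none of them. The shorter string ACGTG, which every CACGTG contains, was also searched. It occurred once in the Eif1b stretch, once in the Eif3a stretch and in neither of the others. A spaced repeat of GAAA, searched as well, occurred once in the Eif3a stretch and in none of the others.

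Over the whole 250 bases, RefSeq promoters were found for 49 of the 65 genes. Each gene was counted once when any of its promoters held the motif on either strand, beside the same count for the 7649 genes tested that had a promoter in the table. The 49 include Eif5a2, Eef1a2 and Eif2s3y, which did not reach 1 FPKM, while the genes tested all did. GGGCGG was present for 37 of the 49 factor genes (75.5%) and 66.7% of the genes tested. CACGTG, the E-box bound by MYC, MAX and USF proteins, was present for 12 (24.5%) and 10.4%. CCAAT was present for 14 (28.6%) and 41.5%. ACGTG was present for 21 (42.9%) and 26.2%, and the spaced GAAA repeat for 2 (4.08%) and 3.27%. Over all 32851 promoters of the table, each counted, the shares were 32.7% for GGGCGG, 6.02% for CACGTG and 33.8% for CCAAT. They were 16.6% for ACGTG and 2.98% for the spaced GAAA repeat. The E-box genes were Eef2, Eef1akmt4, Eef2k, Eif1b, Eif3f, Eif3k, Eif4a1, Eif4e, Eif4g1, Eif4h, Eif5a and Eif5a2, and of the 11 that reached 1 FPKM 8 were lower and 3 higher, with a median log2 ratio of -0.11. They ranged from Eef1akmt4 at -0.62 and Eef2 at -0.49 to Eif1b at 0.61. Median GC content was 61.6% over the promoters of the factor genes and 60.4% over those of the genes tested. A match is a string of letters and not a binding site.

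**Figure D3:**
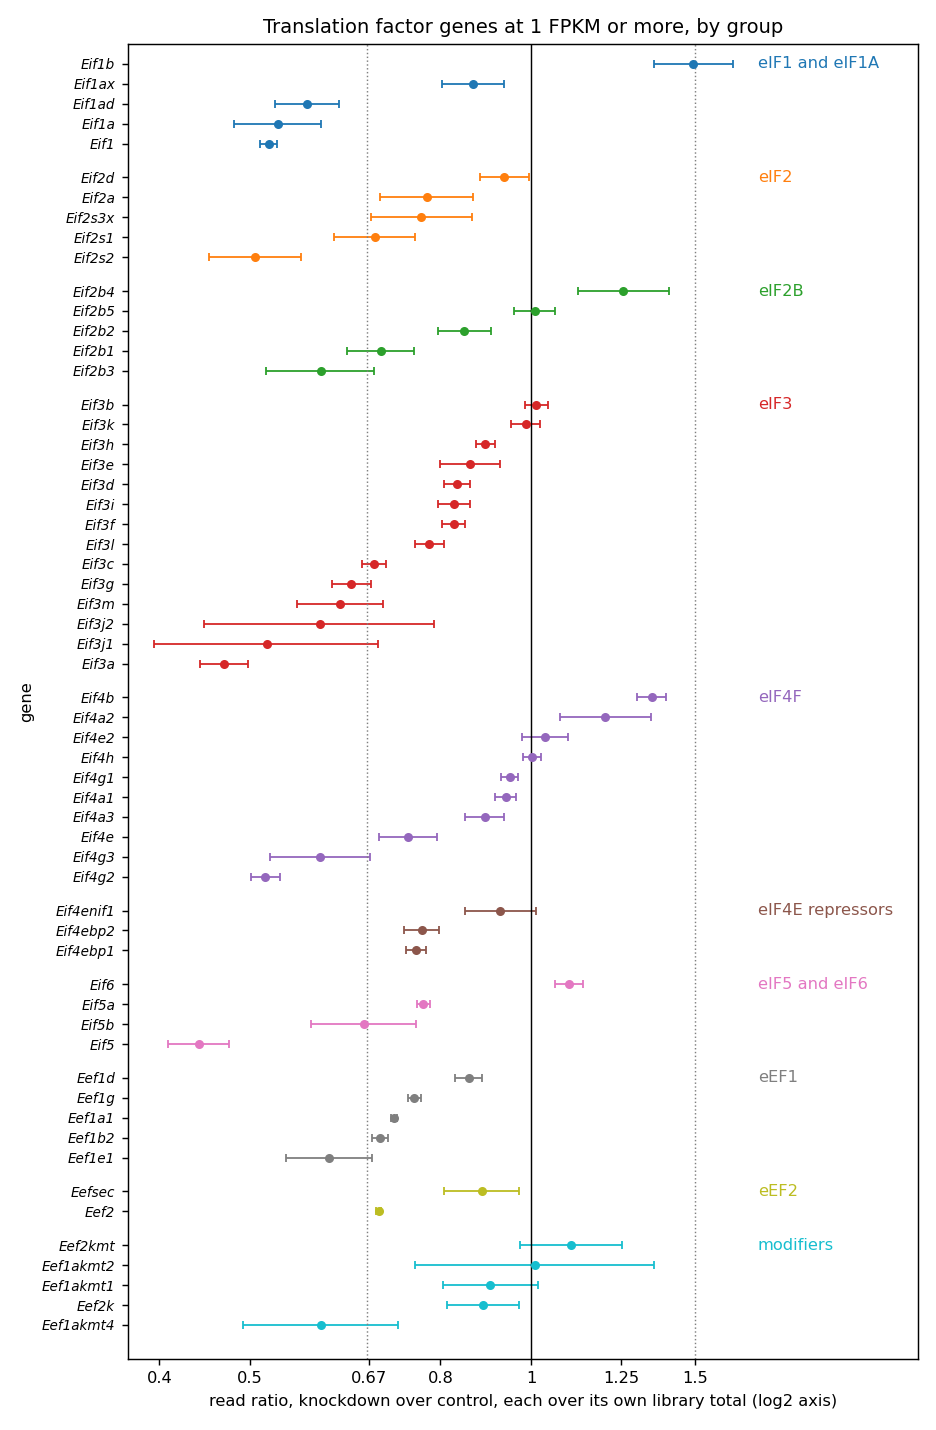
Read ratio, knockdown over control, each over its own library total (x axis, log2 scale), for the 58 factor genes at 1 FPKM or more (y axis), grouped and coloured by complex. Points are ratios, bars are 95% exact binomial intervals that cover counting error only, the solid line is 1 and the dotted lines mark 1.5-fold in each direction. Eif5 at 0.441 and Eif3a at 0.469 lie furthest to the left, and Eif1b at 1.49 and Eif4b at 1.35 furthest to the right.

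eIF1A, the partner of eIF1 on the small subunit, is encoded in the mouse by Eif1ax on the X chromosome and by Eif1a on chromosome 18. Eif1a had 957 reads in the control and 530 in the knockdown (17.7 and 9.83 FPKM, read ratio 0.536, 0.481 to 0.596). Eif1ax had 1447 and 1297 reads (14.7 and 13.1 FPKM, ratio 0.867, 0.804 to 0.935). Eif1ax made up 45.3% of the summed FPKM of this pair in the control and 57.2% in the knockdown, and 60.2% and 71.0% of its reads, so it was the larger in both libraries by reads. The FPKM share rests on a deposited length of 2879 bases for Eif1a, where its GENCODE M21 exons cover 4168. Eif1ad, which shares the eIF1A domain and is not a canonical initiation factor, went from 37.1 to 22.1 FPKM (1718 and 1023 reads, ratio 0.576). Its GENCODE M21 exons, 2792 bases where the deposited length is 2469, share 15.3% of their bases with other genes. Of these only Banf1 had reads, with a log2 ratio of -0.46, and whether overlapping reads were counted is not given.

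For eIF2, which carries the initiator tRNA, each of the 3 subunit genes at 1 FPKM or more was lower, and their median log2 ratio was -0.46. The beta subunit gene Eif2s2 (ENSMUSG00000074656, chromosome 2, 154871410 to 154892935) was lowest, with 900 reads in the control and 471 in the knockdown (7.11 and 3.72 FPKM, ratio 0.506, 0.452 to 0.566). The alpha subunit gene Eif2s1, whose product is the target of the stress kinases, was at 10.4 and 7.28 FPKM (ratio 0.680, 0.615 to 0.751). The gamma subunit gene Eif2s3x was at 8.09 and 6.39 FPKM (ratio 0.763, 0.673 to 0.864), and its Y-linked copy Eif2s3y had no read in either library, where 3 reads would be 0.0385 FPKM. The intervals of Eif2s2 and of Eif2s1 do not overlap, so their ratios differed by more than counting error in these 2 libraries. Variation between cultures was not measured. Eif2a, an alternative initiator tRNA carrier that is not a subunit of eIF2, had a ratio of 0.773, and Eif2d, which acts in reinitiation, was near 1 at 0.936 (0.882 to 0.994).

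Genes of eIF2B, the exchange factor that reloads eIF2 with GTP, were split, 3 lower and 2 higher, with a median log2 ratio of -0.19 that was -0.063 without Eif2b3, the only one of them under 5 FPKM. Eif2b3 was lowest, at 4.79 and 2.95 FPKM (585 and 360 reads, ratio 0.595, 0.521 to 0.680), and Eif2b1 went from 28.2 to 20.1 FPKM (ratio 0.690, 0.635 to 0.750). Eif2b2 had a ratio of 0.849 (0.795 to 0.906). Eif2b5, the catalytic subunit, had 2965 and 3093 reads (61.0 and 63.6 FPKM), and its interval of 0.959 to 1.06 holds 1; its log2 ratio of 0.06 turned negative under upper-quartile scaling. Eif2b4 was higher in the knockdown, with 559 and 726 reads (11.5 and 14.9 FPKM, ratio 1.26, 1.12 to 1.41). Its model shares 7.85% of its exon bases with other genes. Of these only Snx17 had reads, and its log2 ratio was 0.31, beside 0.35 for Eif2b4.

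eIF3 is the largest initiation factor, a scaffold of many subunits on the small ribosomal subunit. All 14 of its genes reached 1 FPKM and 12 were lower, the median log2 ratio being -0.27. Eif3a (ENSMUSG00000024991, chromosome 19, 60761116 to 60790693), the largest subunit and the one around which the others assemble, had 3278 reads in the control and 1590 in the knockdown (33.8 and 16.4 FPKM). Its log2 ratio of -1.0004 is at the 2-fold threshold, and its read ratio was 0.469 (0.442 to 0.498). The FPKM values of Eif3a rest on a deposited length of 5176 bases, where its GENCODE M21 exons cover 8731. With the pseudocount of 1, a longer length would bring the log2 ratio short of that threshold, while the read ratio does not depend on length. Eif3j1 and Eif3j2, which had few reads, were next in read ratio. They were followed by Eif3m, with 909 and 587 reads (ratio 0.625, 0.562 to 0.694), Eif3g, with 4202 and 2788 (ratio 0.642, 0.612 to 0.673), and Eif3c, with 11174 and 7847 (ratio 0.679, 0.660 to 0.699). A further 6 genes, Eif3d, Eif3e, Eif3f, Eif3h, Eif3i and Eif3l, lay between 0.778 and 0.893 in read ratio. The Eif3d model shares 43.3% of its exon bases with other genes. Of these only the antisense locus Gm17638 had reads, 9 in the control and 28 in the knockdown. Eif3h had the highest level of the complex, at 479 FPKM in the control and 443 FPKM in the knockdown (14473 and 13365 reads).

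Not all eIF3 genes were lower. Eif3b had 9073 and 9503 reads (145 and 152 FPKM), a read ratio of 1.01 (0.984 to 1.04), and Eif3k had 5902 and 6025 reads (117 and 119 FPKM), a ratio of 0.987 (0.952 to 1.02). Their log2 ratios of 0.07 and 0.03 turned negative under upper-quartile scaling, and that of Eif3k also with own totals. Both intervals hold 1, while those of Eif3a, Eif3c and Eif3g lie wholly below them, so mRNAs for subunits of 1 complex differed unequally between the libraries. The loosely bound j subunit has 2 gene copies, Eif3j1 at 1.41 and 0.760 FPKM and Eif3j2 at 3.03 and 1.86 FPKM. With 154 and 83 reads for Eif3j1 and 135 and 83 for Eif3j2, their intervals are wide (0.394 to 0.685 and 0.447 to 0.787). These copies share a protein match and hold 52.1% and 47.9% of its reads, so how reads were divided between them is uncertain. Of the exon bases of Eif3j1, 20.2% also belong to other genes, of which only Spg11 had reads, with a log2 ratio of -0.50.

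Genes of the eIF4F machinery had a median log2 ratio of -0.03 over 10 genes, 6 lower and 4 higher. Its main helicase gene Eif4a1 had 11476 reads in the control and 11153 in the knockdown (141 and 137 FPKM, ratio 0.940, 0.916 to 0.965), and the main scaffold gene Eif4g1 had 18235 and 17885 (133 and 131 FPKM, ratio 0.949, 0.929 to 0.968). Both were thus within 1.1-fold between libraries. Eif4h, encoding a helicase cofactor, had 14469 and 14992 reads, and the interval of its ratio, 0.979 to 1.03, holds 1; the log2 ratio of 0.05 turned negative under upper-quartile scaling. Eif4b (ENSMUSG00000058655, chromosome 15, 102073773 to 102097173), which encodes the other cofactor of eIF4A, had 5192 reads (62.0 FPKM) in the control and 7228 (86.4 FPKM) in the knockdown. With 0.47 as log2 ratio and 1.35 as read ratio (1.30 to 1.40), Eif4b was second to Eif1b among the factor genes.

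Eif4g2, which encodes an eIF4G relative without the eIF4E-binding part that serves cap-independent and alternative initiation, was much lower. Eif4g2 (ENSMUSG00000005610, chromosome 7, 111067750 to 111083030) had 8688 reads (45.6 FPKM) in the control and 4665 (24.5 FPKM) in the knockdown, so its log2 ratio was -0.87 and its read ratio 0.519 (0.501 to 0.538). Eif4g3 was at 3.32 and 2.04 FPKM (687 and 422 reads, ratio 0.594, 0.525 to 0.672). In the summed FPKM of these 3 genes, Eif4g1 took 73.2% in the control and 83.1% in the knockdown, while Eif4g2 took 25.0% and 15.6%. As a share of reads, Eif4g2 went from 31.5% (30.9% to 32.0%) to 20.3% (19.8% to 20.8%), and these counting intervals do not overlap.

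Among cap-binding proteins, Eif4e (ENSMUSG00000028156, chromosome 3, 138526179 to 138559696) went from 16.1 FPKM in control cells to 12.3 FPKM in knockdown cells (1811 and 1383 reads, ratio 0.739, 0.688 to 0.793). Eif4e2, whose product binds caps without recruiting eIF4G in the usual way and acts in repression and in hypoxia, was at 16.4 and 17.6 FPKM (2309 and 2472 reads, ratio 1.04, 0.978 to 1.10). The 2 genes were at nearly equal FPKM in the control, and in the knockdown Eif4e2 made up 58.9% of their sum, from 50.5%. Eif4e3 and Eif4e1b had no read in either library, where 3 reads would be 0.0637 and 0.0710 FPKM. Of the helicase paralogs, Eif4a2 was at 5.61 and 6.97 FPKM (561 and 697 reads, ratio 1.20, 1.07 to 1.35), and Eif4a1 made up 96.2% and 95.2% of the FPKM of the pair. The Eif4a2 model shares 13.3% of its exon bases with other genes. Of these Rfc4 had a log2 ratio of -0.33, and Gm24616 had 0 and 1 reads. The Eif4a1 locus held 84.3% of the reads of its protein match, and the processed pseudogene Eif4a-ps4 had 2163 and 2052 reads of its own, so their division is uncertain. Eif4a3, a core protein of the exon junction complex in spite of its name, had a ratio of 0.892 (0.851 to 0.936).

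**Figure D4:**
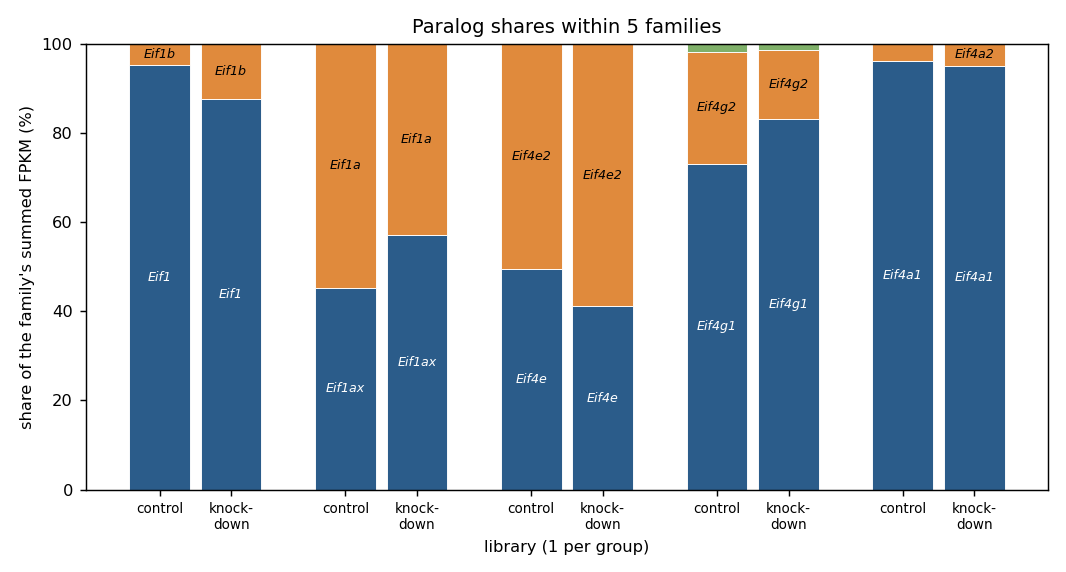
Share of each paralog in the summed FPKM of its family (y axis, percent), in the control and the knockdown library (x axis, 1 library each), for 5 families. Blue is the first gene of each family, orange the second and green Eif4g3. Eif1b grew from 4.68% to 12.3%, Eif4g2 shrank from 25.0% to 15.6%, and Eif4a1 stayed above 95%.

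The repressors of eIF4E were lower to about the same degree as Eif4e itself. Eif4ebp1 (ENSMUSG00000031490, chromosome 8, 27260329 to 27276674), the repressor gene with the highest level here, had 14987 reads (364 FPKM) in the control and 11671 (284 FPKM) in the knockdown, so its log2 ratio was -0.36 and its read ratio 0.753 (0.735 to 0.772). Eif4ebp2 (ENSMUSG00000020091, chromosome 10, 61428491 to 61452661) had 4637 reads (42.8 FPKM) and 3661 (33.8 FPKM), with -0.33 as log2 ratio and 0.764 as read ratio (0.731 to 0.798). The intervals of both repressors and of Eif4e overlap. Eif4ebp3 had 1 read in the control and 0 in the knockdown, where 3 reads would be 0.215 FPKM, so no fold is given. Summed over the 3 repressor genes, the level was 25.3 times that of Eif4e in the control and 25.8 times in the knockdown. The change in the matching ratio of reads was 1.02, with a counting interval (normal approximation on the log scale) of 0.951 to 1.10. Eif4ebp1 was 8.51 times the level of Eif4ebp2 in the control and 8.40 times in the knockdown. Eif4enif1, encoding the transporter that carries eIF4E into the nucleus and to processing bodies, had 1042 and 999 reads, and its interval of 0.849 to 1.01 holds 1.

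Of the factors of the last steps of initiation, Eif5b, encoding the GTPase that joins the subunits, was at 3.21 and 2.20 FPKM (586 and 401 reads, ratio 0.662, 0.581 to 0.753). Its model shares 16.8% of its exon bases with other genes, of which only Rev1 had reads, with a log2 ratio of 0.06. Eif6, whose product keeps the large subunit from joining too early and serves its assembly, was higher, with 6118 and 6940 reads (121 and 137 FPKM, ratio 1.10, 1.06 to 1.14). Eif5a, encoding the hypusine-bearing factor that helps ribosomes through difficult peptide bonds, had 31370 reads (705 FPKM) in the control and 24869 (559 FPKM) in the knockdown, a ratio of 0.767 (0.754 to 0.780). Its paralog Eif5a2 had no read in either library, where 3 reads would be 0.0319 FPKM.

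Elongation factor mRNAs were lower for each of the 6 genes of eEF1A, eEF1B, eEF2 and eEFSec at 1 FPKM or more (median log2 ratio -0.40), none of them by 1.5-fold. Eef1a1 (ENSMUSG00000037742, chromosome 9, 78478449 to 78489151), the carrier of aminoacyl-tRNA, had 219512 reads (4701 FPKM) in the control and 161861 (3466 FPKM) in the knockdown, a ratio of 0.713 (0.709 to 0.718). Eef2 (ENSMUSG00000034994, chromosome 10, 81176631 to 81182498), the translocase, had 241584 reads (3880 FPKM) and 171637 (2757 FPKM), a ratio of 0.687 (0.683 to 0.691). These 2 genes alone took 2.50% of all control reads and 1.75% of all knockdown reads. The Eef1a1 level was 1.21 times that of Eef2 in the control and 1.26 times in the knockdown. Eef1a2, the paralog of muscle and neurons, had 1 read in the control and 0 in the knockdown, where 3 reads would be 0.0769 FPKM.

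The subunits of the eEF1B exchange factor, which recharges eEF1A with GTP, were lower to different degrees. Eef1b2 had 24538 and 17471 reads (517 and 368 FPKM, ratio 0.689, 0.675 to 0.702), Eef1g had 33801 and 26200 (694 and 538 FPKM, ratio 0.750, 0.738 to 0.762), and Eef1d had 7389 and 6554 (60.8 and 53.9 FPKM, ratio 0.858, 0.830 to 0.887). These 3 intervals do not overlap, so the exchange factor subunits differed unequally, by more than counting error, in these 2 libraries. The Eef1g locus held 71.3% of the reads of its protein match, and with the other loci added its log2 ratio was -0.34 in place of -0.37. Eef1e1, a scaffold of the aminoacyl-tRNA synthetase complex in spite of its name, was lower than any of these in log2 ratio (-0.62), at 14.7 and 9.23 FPKM (896 and 563 reads, ratio 0.608, 0.546 to 0.676). Eefsec, encoding the factor specific to selenocysteine, had 982 and 899 reads (ratio 0.885, 0.808 to 0.970).

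Enzymes that modify the elongation factors were mostly near 1. Eef2k, the kinase that inhibits eEF2, had 1036 and 952 reads (7.47 and 6.86 FPKM, ratio 0.889, 0.813 to 0.971). Eef2kmt, a methyltransferase of eEF2, had 474 and 541 reads, and its interval of 0.974 to 1.25 holds 1, as do those of the eEF1A methyltransferases Eef1akmt1 (0.804 to 1.02) and Eef1akmt2 (0.751 to 1.36), the last of which turned negative in log2 ratio under upper-quartile scaling. Eef1akmt3 stayed under 1 FPKM, with 22 and 24 reads. Eef1akmt4 was lower, at 289 and 178 reads (9.56 and 5.89 FPKM, ratio 0.596, 0.491 to 0.721), but its model shares 31.7% of its exon bases with other genes. Of these only Alg3 had reads, with a log2 ratio of -0.94. The Eef2kmt model likewise shares 23.0% of its exon bases with other genes. Among them Alg1 had 1201 and 616 reads, and whether reads in shared bases were counted for Eef2kmt is not given.

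Other genes of the pathway, from lists of 55 genes with known roles beside the factors, were examined in the same way. Of the 50 at 1 FPKM or more, 32 were lower and 18 higher, and their median log2 ratio was -0.25; 4 were at least 2-fold lower, where 4.85% of all genes were, and 1 at least 2-fold higher, where 6.81% were. A list of 13 genes of poly(A)-binding proteins, their partners and other proteins that act on initiating or recycled ribosomes had a median of -0.32. In it 6 were at least 1.5-fold lower, against 14.3% of all genes, namely Pabpc1, Pabpc4, Abce1, Bzw1, Bzw2 and Dhx29, of which only the first pair encode poly(A)-binding proteins. Pabpc1 was at 245 and 150 FPKM (29987 and 18329 reads, ratio 0.591, 0.580 to 0.602) and Pabpc4 was at 99.0 and 40.6 FPKM (ratio 0.396, 0.380 to 0.413). Abce1, the ribosome recycling ATPase, went from 651 to 254 reads (ratio 0.377, 0.325 to 0.437), and Abcf1 had the highest ratio of this list, at 1.12. Of 6 termination and rescue genes 4 were lower, from Hbs1l at a log2 ratio of -0.43 to Gspt2 at 0.64.

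Of 15 genes of mTORC1 signalling and eIF4E phosphorylation at 1 FPKM or more, 8 were lower and 7 higher, with a median log2 ratio of -0.15. The kinases that phosphorylate eIF4E diverged: Mknk1 had 1372 reads in the control and 500 in the knockdown (16.3 and 5.93 FPKM, ratio 0.352, 0.318 to 0.391), and Mknk2 had 3442 and 6825 (47.2 and 93.6 FPKM, ratio 1.92, with 1.84 as lower bound). Ddit4, an inhibitor of mTORC1 induced by stress and low oxygen, was highest, at 45.3 and 117 FPKM (1489 and 3852 reads, ratio 2.50, 2.36 to 2.66). Another list held 9 genes that serve the placing of diphthamide on eEF2 or hypusine on eIF5A. Among them Dph1 was lowest, with 429 and 108 reads (8.51 and 2.14 FPKM, ratio 0.243, 0.195 to 0.301), and Dnajc24 highest at 1.23 (1.05 to 1.45). Mitochondrial translation factors, which serve the separate ribosomes of that organelle, had a median of -0.03 over 7 genes, from Mrrf at -0.61 to Gfm2 at 0.65.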

How the data were processed

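Samples were grouped by the genotype and treatment in the labels, and columns were matched by library name. The authors deposited FPKM values with the length of each gene model; HISAT2, featureCounts 1.5.0-p3, CASAVA and the build GRCm38 are named in the submitters' processing notes. Whether counting used strand, or kept reads of overlapping genes, is not given in the sources used here. Exons of 16 of the 58 genes at 1 FPKM or more overlap those of another gene with reads. Of the 65 gene models, 62 had the position and exon length of GENCODE M21, while the lengths of Eif1a, Eif1ad and Eif3a differed. Reads were recovered as FPKM times length over the value of 1 read, and 100% of values above 0 came out whole within 0.001; both columns had been scaled by 18731117 reads.

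Genes were tested from 1 FPKM upward in either library, with a pseudocount of 1. No p-value was computed, each group being 1 library. The calculations were tested on simulated data. Alternatives were a pseudocount of 0.1, no filter or 5 FPKM, scaling by own read totals, by the median ratio or by the upper quartile, reads in place of FPKM for shares, and reads summed over loci with the same Swiss-Prot match. Genes were named by rule: the repressors, those past 1.5-fold, the highest and lowest ratio and the highest level of each complex, and paralogs, and outside the factors those past 2-fold and the extremes of each list. The remaining factor genes complete the account of the 65. Other genes given outside this rule (Mknk2, Pabpc1, Bzw1, Bzw2, Dhx29) were chosen after their values were seen. Members, lists and alternatives were chosen with earlier results of these data known. Tools were numpy 2.4.6, scipy 1.17.1, pandas 2.3.3 and matplotlib 3.10.9 in Python 3.11.15.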

Additional observations from a re-analysis of the deposited data

How the results depend on the processing

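No paired analysis was possible because there was 1 library a group, and none could be left out. The median log2 ratio of the factor genes stayed below 0 under every alternative run. With the median ratio set to 1, Eif5 alone was at least 2-fold lower (1 gene in place of 2), and the read ratios were 0.542 for Eif1, 0.739 for Eef1a1 and 0.712 for Eef2. Under own read totals and under upper-quartile scaling, 0 genes were at least 1.5-fold higher. Eif4ebp1 was at -0.41 with own totals and -0.45 with the upper quartile, and Eif4ebp2 at -0.42 with the latter. Counted in reads, or in reads summed over loci with the same match, the share of Eif4g1 in its family grew by 11.8 percentage points in place of 9.98, and the change in the share of Eif1 in its pair was -4.42 or -4.41 points in place of -7.60. Genes near 0 reversed: Eif3k at -0.0182 with own totals, and under upper-quartile scaling Eif3k at -0.0582, Eif2b5 at -0.0270, Eif3b at -0.0215, Eif4h at -0.0370 and Eef1akmt2 at -0.0205. Apart from the scaling itself, which shifts all genes alike, the cause was not tested. Of 280 alternative ratios of 56 genes, 239 stayed within counting error, 35 moved and 6 reversed. Eif4ebp1 and Eif4ebp2 are not among these 56, and their values that moved are those given above. The upper quartile moved the median of all genes most, to -0.0754. None of the 7 genes under 1 FPKM had more than 24 reads in a library, which limits what can be said of their ratios.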
